A study of Mus musculus with 12 samples.

Results

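The HOX cluster genes are the homeobox genes of the mouse HoxA, HoxB, HoxC and HoxD clusters. Members were the rows of the deposited table whose mouse symbol is Hox followed by the cluster letter and the paralogue number, which gave 33 of 20432 genes. HoxA had 10 measured members, HoxB 9, HoxC 8 and HoxD 6. Hoxa6, Hoxb1, Hoxc12, Hoxd1, Hoxd11 and Hoxd12 were not analysed here. The samples were cultures of 6 mouse pancreatic ductal adenocarcinoma lines, 52205, 52419, 52424, 53105, 53369 and 53371. Each line was profiled by poly(A) RNA sequencing after infection with the pBabe-Cre-puro retrovirus and puromycin selection at 2, 4 and 7 µg/ml, which the labels give as the route to a JAK1-deficient line, and also as the uninfected parental line with wild-type JAK1. Each line and condition had 1 library, so there were 6 Cre and 6 parental libraries, and no culture infected with an empty vector was analysed here. The study's question was what differs within isogenic pairs before and after deletion of JAK1, a kinase of cytokine receptor signalling.

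HOX proteins are homeodomain transcription factors that give cells of the embryo their position along the body axis. Their genes lie in 4 clusters in which the order on the chromosome follows the order of expression along the axis, with low paralogue numbers toward the head and high numbers toward the tail. Adult cells commonly keep a HOX code from their origin. Silent HOX genes are typically held by Polycomb complexes, active ones are maintained by trithorax-type enzymes, and many HOX proteins bind DNA together with TALE homeodomain cofactors of the PBX, MEIS and PREP families.

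RefSeq start-site windows of GRCm38.p6, from 250 bases before to 50 bases after the start, were found for 17 of the 33 members (18 windows). The 5 windows below belong to members that carry the line differences described next, plus Hoxd10, the next gene after Hoxd9 in HoxD, which was nearly silent in the same libraries. Capitals mark CG dinucleotides, the sites of DNA methylation in mammals, and each window reads 5′ to 3′ on the gene's own strand. Hoxd8 is chr2:74704365-74704664 on the plus strand, Hoxd9 is chr2:74697513-74697812 on the plus strand and Hoxd10 is chr2:74691641-74691940 on the plus strand. Hoxb8 is chr11:96281655-96281954 on the plus strand and Hoxa5 is chr6:52204538-52204837 on the minus strand.
Hoxd8: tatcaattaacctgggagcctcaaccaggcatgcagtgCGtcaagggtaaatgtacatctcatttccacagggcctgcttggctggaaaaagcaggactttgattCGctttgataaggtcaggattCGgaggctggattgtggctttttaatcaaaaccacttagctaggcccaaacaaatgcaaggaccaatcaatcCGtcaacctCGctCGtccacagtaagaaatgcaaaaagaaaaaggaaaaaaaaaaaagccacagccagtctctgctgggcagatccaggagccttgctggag
Hoxd9: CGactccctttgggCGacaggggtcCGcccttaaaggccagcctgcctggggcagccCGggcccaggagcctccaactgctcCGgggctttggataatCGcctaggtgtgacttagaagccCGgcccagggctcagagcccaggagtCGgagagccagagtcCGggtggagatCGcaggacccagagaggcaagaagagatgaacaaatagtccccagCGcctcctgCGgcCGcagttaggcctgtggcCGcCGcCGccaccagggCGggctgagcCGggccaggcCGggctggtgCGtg
Hoxd10: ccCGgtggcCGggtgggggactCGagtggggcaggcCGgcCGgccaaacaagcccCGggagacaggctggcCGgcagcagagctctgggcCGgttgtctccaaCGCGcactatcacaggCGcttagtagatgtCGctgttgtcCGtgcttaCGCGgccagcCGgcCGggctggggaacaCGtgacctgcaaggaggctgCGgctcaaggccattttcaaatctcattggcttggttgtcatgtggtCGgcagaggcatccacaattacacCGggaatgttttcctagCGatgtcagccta
Hoxb8: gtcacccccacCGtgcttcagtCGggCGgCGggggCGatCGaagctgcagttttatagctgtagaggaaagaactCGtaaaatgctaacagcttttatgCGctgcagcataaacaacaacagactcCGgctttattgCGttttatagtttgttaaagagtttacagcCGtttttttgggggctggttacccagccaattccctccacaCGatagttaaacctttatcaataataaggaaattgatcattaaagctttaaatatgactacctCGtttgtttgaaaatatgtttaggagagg
Hoxa5: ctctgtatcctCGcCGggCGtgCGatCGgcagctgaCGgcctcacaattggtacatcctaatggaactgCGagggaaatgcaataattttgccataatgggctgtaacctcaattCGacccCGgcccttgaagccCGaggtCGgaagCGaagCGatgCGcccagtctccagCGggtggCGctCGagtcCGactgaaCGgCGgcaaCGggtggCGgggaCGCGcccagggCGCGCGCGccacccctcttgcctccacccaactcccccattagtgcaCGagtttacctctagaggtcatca

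The windows differed in CG content. Hoxd8 held 6 CG dinucleotides, Hoxd9 20, Hoxd10 22, Hoxb8 13 and Hoxa5 29. The median was 14.5 over the 18 HOX windows, with a range of 4 to 45, against 7 over all 32851 RefSeq windows of the same length. The motif TGATNNAT, searched on both strands as a form of the site that HOX and PBX proteins bind together, was found in 2 of the 18 HOX windows (Hoxa2 and Hoxb8), 11.1%, against 8.85% of all windows. A match of letters is a description of the window.

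Levels are counts per 1000000 reads (CPM) of the deposited, scaled table. The libraries held 11.5 to 18.0 M recovered reads in genes (M, 1e+06 reads), 1 read was worth 0.0569 to 0.0896 CPM, and 3 reads, the limit that a count of 0 allows, were worth 0.171 to 0.269 CPM. Jak1, the targeted gene, stood at 104 to 234 CPM in the Cre libraries and at 125 to 207 CPM in the parental libraries. A total over the gene does not show whether a part of it was deleted. Cdh1, Krt8 and Krt19, markers of epithelial and ductal cells, were high in lines 52205, 52424, 53105 and 53371. Other markers of that list were low in 53105. Epcam was at 2.14 CPM in Cre and 1.99 CPM in parental 53105, Cldn4 at 4.03 and 4.09 CPM, and Cldn7 at 2.25 and 1.08 CPM in the same order. Krt7 and Krt18 of the list were high there, at 508 and 1223 CPM in Cre and 462 and 1053 CPM in parental cells. Line 52419 had Cdh1 at 0.615 CPM in the Cre library and 0.372 CPM in the parental library, and Krt8 at 0.538 and 0.818 CPM in the same order, so these 2 markers were nearly absent from a line labelled ductal adenocarcinoma. Other markers of the same list were present in 52419, with Krt18 at 188 CPM in Cre and 253 CPM in parental cells, Sox9 at 149 and 171 CPM, and Krt19 at 19.9 and 15.5 CPM in the same order. Line 53369 lay between, with Cdh1 at 36.4 CPM in Cre and 17.5 CPM in parental cells. Of the leukocyte markers, Adgre1 had at most 0.0569 CPM and Ptprc at most 1.02 CPM in any library, while Cd68 was found in every library, at 1.48 to 9.23 CPM in the Cre and 1.88 to 23.1 CPM in the parental libraries. In 52424 Cd68 was at 5.67 CPM in Cre and 23.1 CPM in parental cells. On log levels of 12734 genes, 10 of 12 libraries were most alike to the partner of their own line, and the exceptions were parental 52205 and Cre 53371, which were closest to each other.

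HOX genes were weakly expressed in all 12 libraries, and the small signal there was came from different clusters in different lines. All members together had 857 reads, and 735 of these (85.8%) were in 4 libraries: Cre 52205, both libraries of 52419 and parental 53105. Of 396 values (33 members in 12 libraries), 280 were 0, 356 were at 3 reads or fewer and 17 were at 10 reads or more. HoxD had 361 reads over the 12 libraries, HoxA 244, HoxB 175 and HoxC 77. In bulk RNA, fewer cells with a transcript and less transcript per cell cannot be told apart.

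The summed HOX level per line was 14.7 CPM in Cre and 1.80 CPM in parental cells of 52205, and 20.3 CPM in Cre and 10.6 CPM in parental cells of 52419. It was 2.55 CPM in Cre and 0.344 CPM in parental cells of 52424, and 2.55 CPM in Cre and 9.38 CPM in parental cells of 53105. In 53369 it was 0.0714 CPM in Cre (1 read) and 0.229 CPM in parental cells (3 reads), and in 53371 it was 0.507 CPM in Cre and 0.473 CPM in parental cells (6 reads each). The summed level was thus higher in the Cre library in 52205, 52419 and 52424 and lower in 53105, and in 53369 and 53371 too few reads were present to compare.

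**Figure D1:**
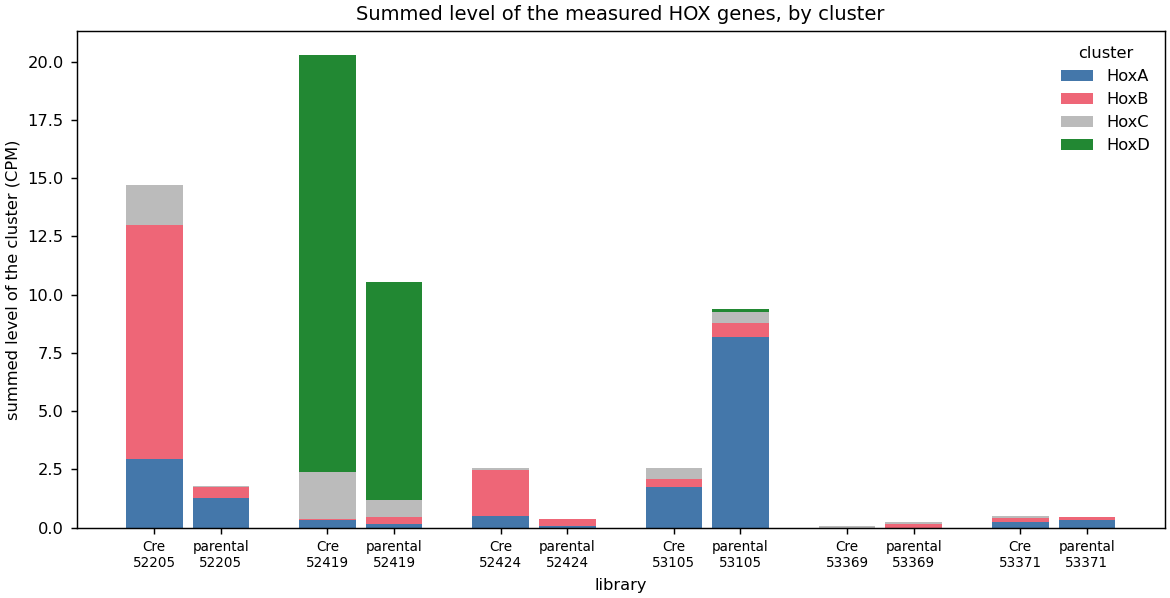
Summed level of the measured genes of each HOX cluster (y axis, CPM) in each library (x axis), Cre left of parental within a line; bars are single libraries without error. HoxD makes up most of both bars of 52419, HoxB most of the Cre bar of 52205 and HoxA most of the parental bar of 53105.

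**Figure D2:**
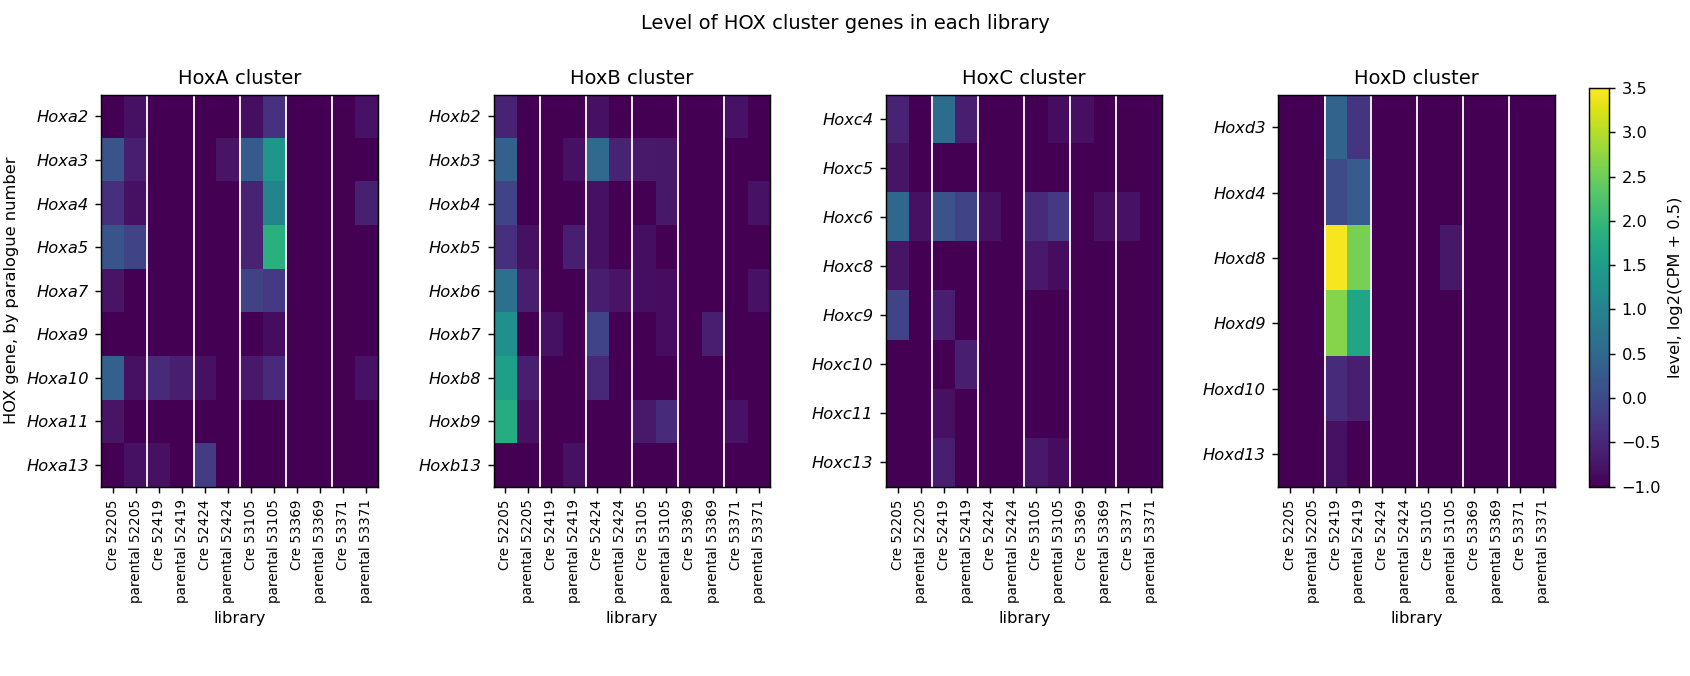
Level of HOX cluster genes (rows, by paralogue number) in each library (columns, Cre left of parental within a line) as log2(CPM + 0.5), where -1 is a count of 0. The brightest cells are Hoxd8 and Hoxd9 in 52419, Hoxb6 to Hoxb9 in Cre 52205 and Hoxa3 to Hoxa5 in parental 53105.

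A member was counted as expressed in a library at 1 CPM or more. By that rule Hoxd8 and Hoxd9 were expressed in both libraries of 52419, Hoxb6, Hoxb7, Hoxb8 and Hoxb9 in the Cre library of 52205 alone, and Hoxa3, Hoxa4 and Hoxa5 in the parental library of 53105 alone. Of the 198 combinations of a member and a line, 2 were at the level in both libraries, 7 in 1 library and 189 in neither. Lines 52424, 53369 and 53371 had no member at the level. Thus 2 of the 9 combinations with a library at the level kept that state across the pair.

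The code of 52419 was HoxD, and it was present in both cultures. HoxD took 88.3% of the HOX reads in Cre 52419 and 88.7% in parental 52419, and the other 10 libraries held 2 HoxD reads in all, both of Hoxd8 in parental 53105. The HoxD sum was 17.9 CPM in the Cre library (233 reads) and 9.37 CPM in the parental library (126 reads), a ratio of 1.91 with a 95% counting interval of 1.53 to 2.39. Counting intervals here are exact binomial ones on the reads of 2 libraries. They cover counting error only, compare those libraries and not the conditions, carry no replicate check and are not adjusted for the number of members and lines.

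Hoxd8, a paralogue group 8 gene of the central HoxD cluster, had 10.3 CPM in Cre 52419 (134 reads) and 5.50 CPM in parental 52419 (74 reads). Hoxd9, its neighbour toward the tail end, had 5.92 CPM in the Cre library (77 reads) and 2.68 CPM in the parental library (36 reads). The ratios were 1.87 (1.40 to 2.52) for Hoxd8 and 2.21 (1.47 to 3.38) for Hoxd9, so both were higher in the Cre library beyond counting error. These genes made up 90.6% of the HoxD reads in Cre 52419 and 87.3% in parental 52419. The rest of the cluster was low in the same libraries. Hoxd3, an anterior member, had 11 reads in the Cre and 4 in the parental library, and Hoxd4 had 7 in the Cre and 10 in the parental library, both differences within counting error. Hoxd10 had 3 reads in the Cre and 2 in the parental library, and Hoxd13, the most posterior HOX gene of the cluster, had 1 read in the Cre and 0 in the parental library. The exons of Hoxd3 and Hoxd4 overlap on the same strand, and those of Hoxd3os1 overlap both from the other strand. Because the library preparation kept no stated record of strand, such reads may be shared. Hoxd3os1 itself had 1 read in Cre and 2 reads in parental 52419.

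Per kilobase of exon, Hoxd8 stood at 3.75 CPM per kb in Cre 52419 and 2.00 CPM per kb in parental 52419, above 54.8% and 46.2% of the 17517 genes with a known exon length in those libraries. Hoxd9 stood at 2.77 CPM per kb in the Cre library and 1.25 CPM per kb in the parental library, above 50.7% and 42.2% of genes. Hoxa5 in parental 53105 stood at 1.67 CPM per kb, above 43.7% of genes. Among values with 10 or more reads, Hoxd8 and Hoxd9 in Cre 52419 were the highest HOX levels per length, and they lay near the middle of these 17517 genes. The ranking included genes with no read in the library, so it does not place Hoxd8 and Hoxd9 among expressed genes.

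The genes next to the HoxD cluster were also highest in 52419. Lnpk, which encodes an endoplasmic reticulum junction protein and lies 88.8 kb from the cluster, had 89.3 CPM in Cre and 73.4 CPM in parental 52419, against at most 31.4 CPM in the other Cre libraries and at most 36.2 CPM in the other parental libraries. Mtx2, a mitochondrial outer membrane gene 60.7 kb from the other end, had 108.7 CPM in Cre and 93.0 CPM in parental 52419, against at most 65.9 CPM in the other Cre libraries and at most 61.3 CPM in the other parental libraries. The 52419 values of both neighbours did not overlap with those of the other lines, but the share of all genes that stand apart in this way was not counted. In the limma fit over all tested genes, Lnpk and Mtx2 differed between lines at adjusted p = 0.000285 and 0.000728, beside 71.1% of all genes tested. Without line 52419, the same fit called 50.7% of genes between lines. Neither Lnpk nor Mtx2 was called for Cre against parental. The part of these neighbours in the HoxD values was not tested.

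**Figure D3:**
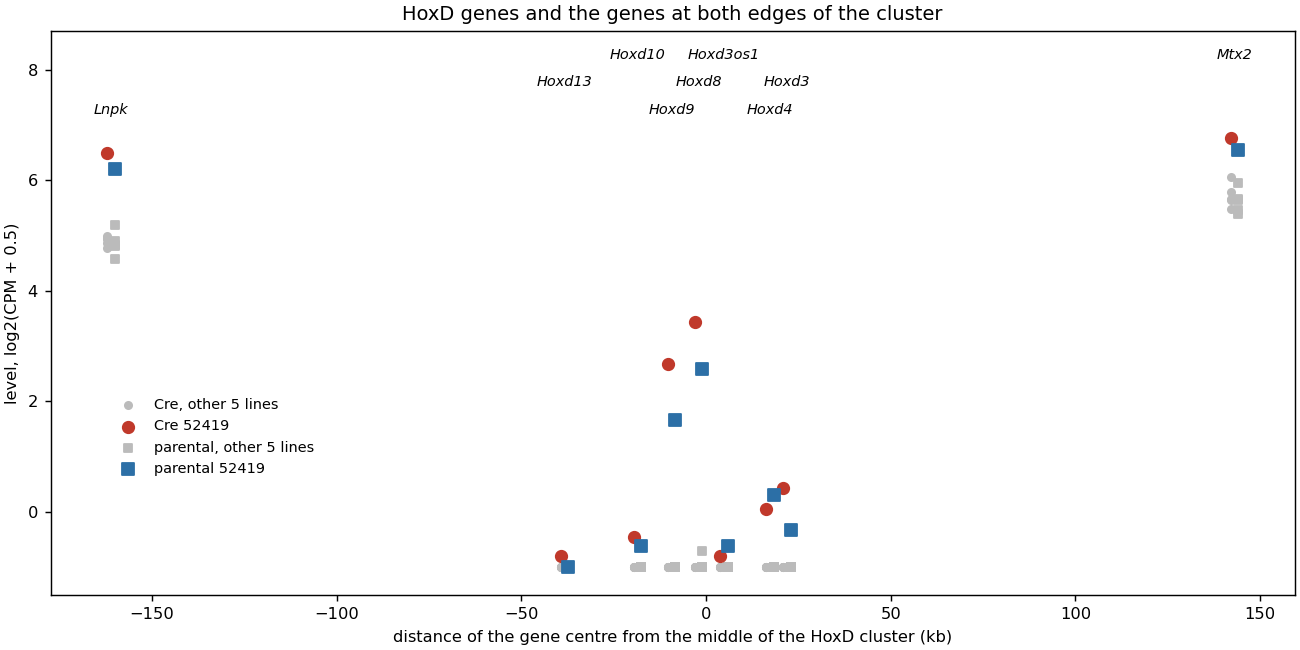
Level (y axis, log2(CPM + 0.5)) of the 6 measured HoxD genes, of Hoxd3os1 and of the genes at both edges, by distance of the gene centre from the middle of the cluster (x axis, kb). Red circles are Cre 52419, blue squares are parental 52419 and grey points are the other 5 lines; in 52419 Hoxd8 and Hoxd9 stand out within the cluster, and Lnpk and Mtx2 are also above the other lines.

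In 52205 the HOX signal was seen mainly in the Cre culture and came from the HoxB cluster. The HoxB sum was 10.0 CPM in Cre 52205 (112 reads, 68.3% of its HOX reads) and 0.451 CPM in parental 52205 (6 reads), a ratio of 22.3 (9.92 to 62.0). The genes at the level were 4 neighbours on the chromosome. Hoxb9 had 2.96 CPM in the Cre library (33 reads) and 0.0751 CPM in the parental library (1 read), a ratio of 39.4 (6.59 to 1602). Hoxb8 had 2.42 CPM (27 reads) in the Cre library and 0.150 CPM (2 reads) in the parental library, a ratio of 16.1 (4.05 to 140). Hoxb6 had 1.08 CPM (12 reads) in the Cre library and 0.150 CPM (2 reads) in the parental library, a ratio of 7.16 (1.59 to 65.9). Hoxb7 had 1.88 CPM (21 reads) in the Cre library and 0 reads in the parental library. Its Cre level was 8.35 times the level of 3 reads in the parental library, and the counting interval of its ratio began at 6.22. Per kilobase of exon in Cre 52205, Hoxb7 stood at 1.22, Hoxb9 at 1.15, Hoxb8 at 0.918 and Hoxb6 at 0.548 CPM per kb. The levels per length did not follow the order of the genes along the cluster.

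The anterior side of HoxB was lower in Cre 52205 but also mostly above its parental partner. Hoxb3 had 9 reads in the Cre and 0 in the parental library, Hoxb4 had 5 and 0, Hoxb5 had 3 and 1, and Hoxb2 had 2 and 0 in the same order. Hoxb13, which lies apart from the rest at the posterior end, had 0 reads in both. Other clusters were also higher in the Cre culture. HoxC had 19 reads in the Cre library and 1 in the parental library, with Hoxc6 at 10 and 1 and Hoxc9 at 5 and 0. HoxA had 33 reads in the Cre library and 17 in the parental library, a ratio of 2.32 (1.25 to 4.43), with Hoxa10 at 9 and 1. Hoxa5 had 7 reads in the Cre and 6 in the parental library and did not differ beyond counting error. No HoxD read was found in either culture of 52205.

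These switches were read against the rest of the table. In 52205, 4 of 33 members (12.1%) were under 1 CPM in the parental library and at or over it in the Cre library, beside 2.56% of the 7486 genes that were under the level in the parental library. By a stricter rule, with 10 or more reads in 1 library and a 4-fold difference when the lower library is set to no fewer than 3 reads, 25 of 13494 genes (0.185%) were higher in Cre 52205, and 4 of these were Hoxb6, Hoxb7, Hoxb8 and Hoxb9. More genes were higher in the parental library of this line by that rule, 2.15%, and no HOX gene was among them. The other lines and directions that held no switched member had 1.87% to 7.22% of genes switched at 1 CPM. Both rules were chosen with the values known and are descriptions of 2 libraries. Epithelial genes also differed between these cultures: Epcam had 11.1 CPM in Cre and 79.3 CPM in parental 52205, Cldn4 had 14.6 and 128 CPM, and Cldn7 had 6.63 and 48.3 CPM in the same order, while Krt8 had 3120.1 CPM in Cre and 2401 CPM in parental cells. The summed level of the 10 epithelial markers was 13153 CPM in Cre and 8935 CPM in parental 52205. Their part in the HoxB difference was not tested.

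In 53105 the HOX signal was seen mainly in the parental culture and came from the anterior HoxA genes. The HoxA sum was 1.72 CPM in Cre 53105 (29 reads) and 8.19 CPM in parental 53105 (144 reads), a ratio of 0.210 (0.136 to 0.315). Hoxa5, known in the mouse for its role in lung and gut patterning, had 0.178 CPM in the Cre library (3 reads) and 3.13 CPM in the parental library (55 reads), a ratio of 0.0569 (0.0114 to 0.175). Hoxa4 had 0.178 CPM (3 reads) in the Cre library and 1.54 CPM (27 reads) in the parental library, a ratio of 0.116 (0.0225 to 0.377). Hoxa3, known for pharyngeal organ development, had 0.712 CPM (12 reads) in the Cre library and 2.10 CPM (37 reads) in the parental library, a ratio of 0.338 (0.161 to 0.663). Hoxa2 had 1 read in the Cre and 5 in the parental library. Hoxa7, the next measured gene toward the posterior end, differed from these, with 7 reads in the Cre and 6 in the parental library. Hoxa10 had 2 and 4 reads, Hoxa9 0 and 1, and Hoxa11 and Hoxa13 had 0 in both.

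Here 3 of 33 members (9.09%) were at the level in the parental library and under it in the Cre library, beside 3.18% of 7825 genes. By the 4-fold rule Hoxa4 and Hoxa5 were 2 of the 80 genes higher in parental 53105, 0.59% of the 13553 genes considered, and Hoxa3 did not pass. HoxB had 6 reads in the Cre and 10 in the parental library of 53105, and HoxC had 8 and 9, both within counting error. Exons of Hoxa3, Hoxa4 and Hoxa7 overlap antisense transcripts, of which Hoxaas3 had 0 reads in Cre and 3 reads in parental 53105 and 5730596B20Rik had 1 read in each. Cdh1 was 493 CPM in Cre and 272 CPM in parental 53105, and the epithelial markers summed to 5881 CPM in Cre and 4507 CPM in parental cells. Their part in the HoxA difference was not tested.

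**Figure D4:**
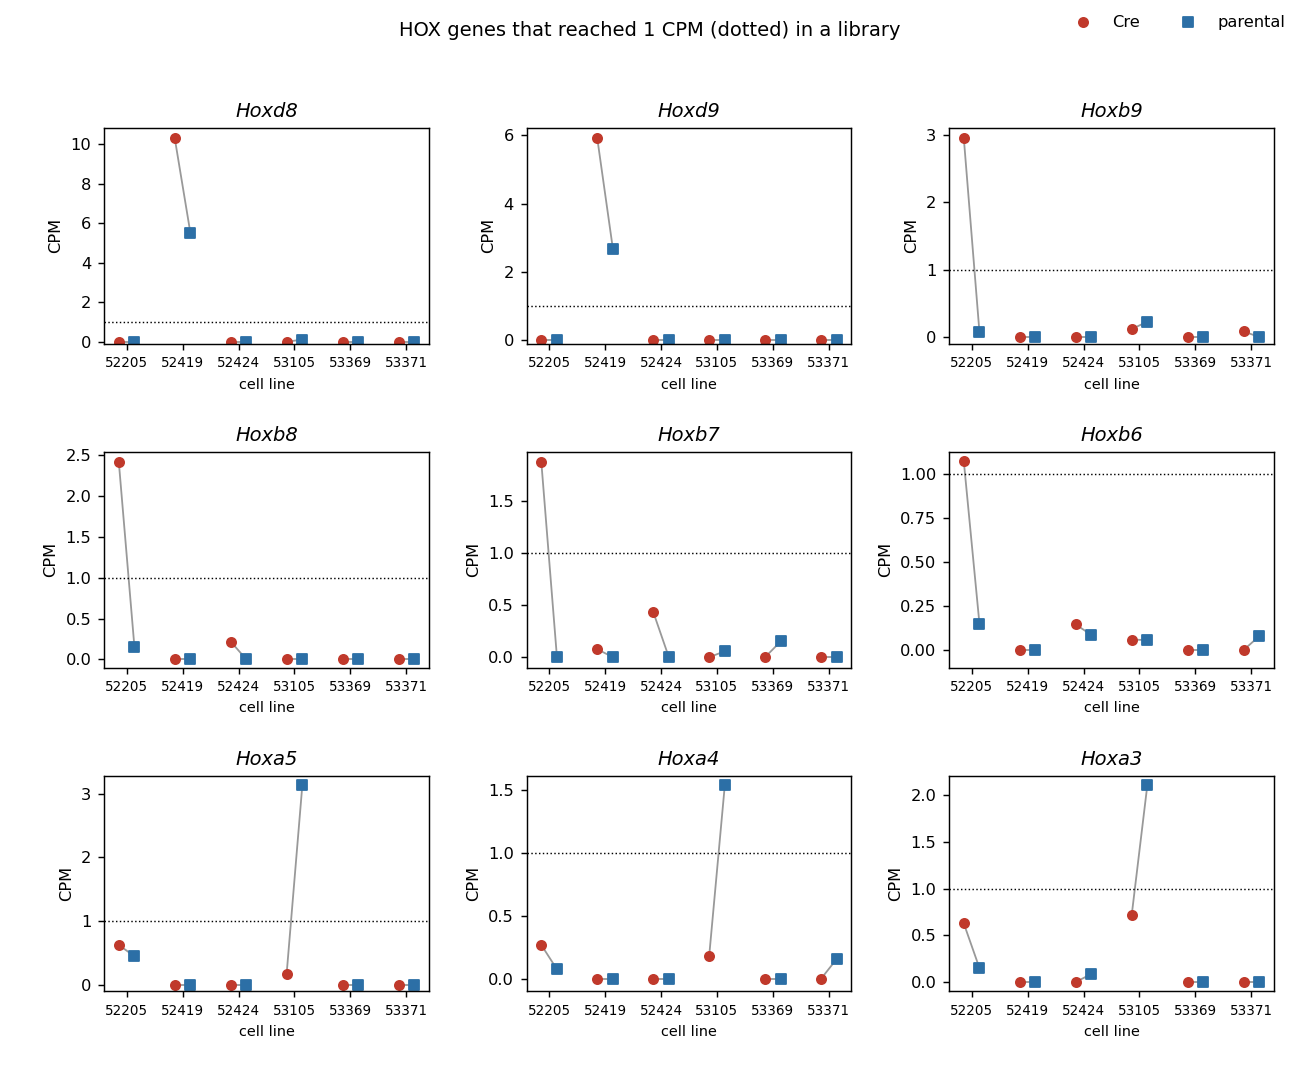
CPM (y axis, scale set per gene) of the 9 members that reached 1 CPM (dotted line) in a library, by line (x axis), with Cre as red circles left of parental as blue squares. Hoxd8 and Hoxd9 are above the dotted line in both cultures of 52419, Hoxb6 to Hoxb9 only in Cre 52205 and Hoxa3 to Hoxa5 only in parental 53105.

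The other lines gave few reads. Line 52424 also had more HoxB signal in its Cre culture, with a HoxB sum of 1.96 CPM (27 reads) in the Cre and 0.258 CPM (3 reads) in the parental library, a ratio of 7.60 (2.34 to 39.2). Hoxb3 had the most reads there, with 13 reads (0.945 CPM) in the Cre and 2 reads (0.172 CPM) in the parental library, while Hoxb7 had 6 and 0 reads, Hoxb8 3 and 0, and Hoxb9 0 in both. Exons of the antisense gene Hoxb3os overlap 2250 bases of the 4251 exon bases of Hoxb3, so some of its reads may belong there. Hoxa13, the most posterior HoxA gene, had 5 reads in Cre 52424 and 0 in parental 52424. As in 52205, Epcam was lower in the Cre culture of 52424, at 127 CPM against 366 CPM in parental cells, and Cldn4 was at 136 CPM in Cre and 408 CPM in parental cells. Their part in the HoxB values was not tested. Line 53369 had 1 read (Hoxc4) in the Cre library, and its parental library had 2 reads of Hoxb7 and 1 of Hoxc6. Line 53371 had 1 read each of Hoxb2, Hoxb9 and Hoxc6 in the Cre library, against 2 of Hoxa4 and 1 each of Hoxa2, Hoxa10, Hoxb4 and Hoxb6 in the parental library.

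HoxC had the fewest reads of the 4 clusters. In 52419 its sums were 2.00 CPM in Cre and 0.743 CPM in parental 52419 (26 and 10 reads), a ratio of 2.69 (1.25 to 6.25). Hoxc4 had 13 reads (0.999 CPM) in Cre 52419 and 2 reads (0.149 CPM) in parental 52419, just under the level, and it was 1 of the 18 genes (0.138%) that passed the 4-fold rule upward in that line. Hoxc6 was the most widely found member of the cluster, with reads in 9 of 12 libraries and at most 0.896 CPM. Hoxc5, Hoxc8, Hoxc10, Hoxc11 and Hoxc13 had at most 2 reads in any library.

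In all, 12 members stayed under 1 CPM everywhere but had more than 3 reads in a library, among them Hoxa2, Hoxa7, Hoxa10, Hoxa13, Hoxb3, Hoxb4, Hoxc4, Hoxc6, Hoxc9, Hoxd3 and Hoxd4. A further 12 had at most 3 reads in every library, namely Hoxa9, Hoxa11, Hoxb2, Hoxb5, Hoxb13, Hoxc5, Hoxc8, Hoxc10, Hoxc11, Hoxc13, Hoxd10 and Hoxd13. The counts of the second set did not exceed the limit that a count of 0 allows in any single library. The line call of Hoxd10, given with the tests between lines, rests on 5 reads in all, 3 in Cre and 2 in parental 52419.

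**Figure D5:**
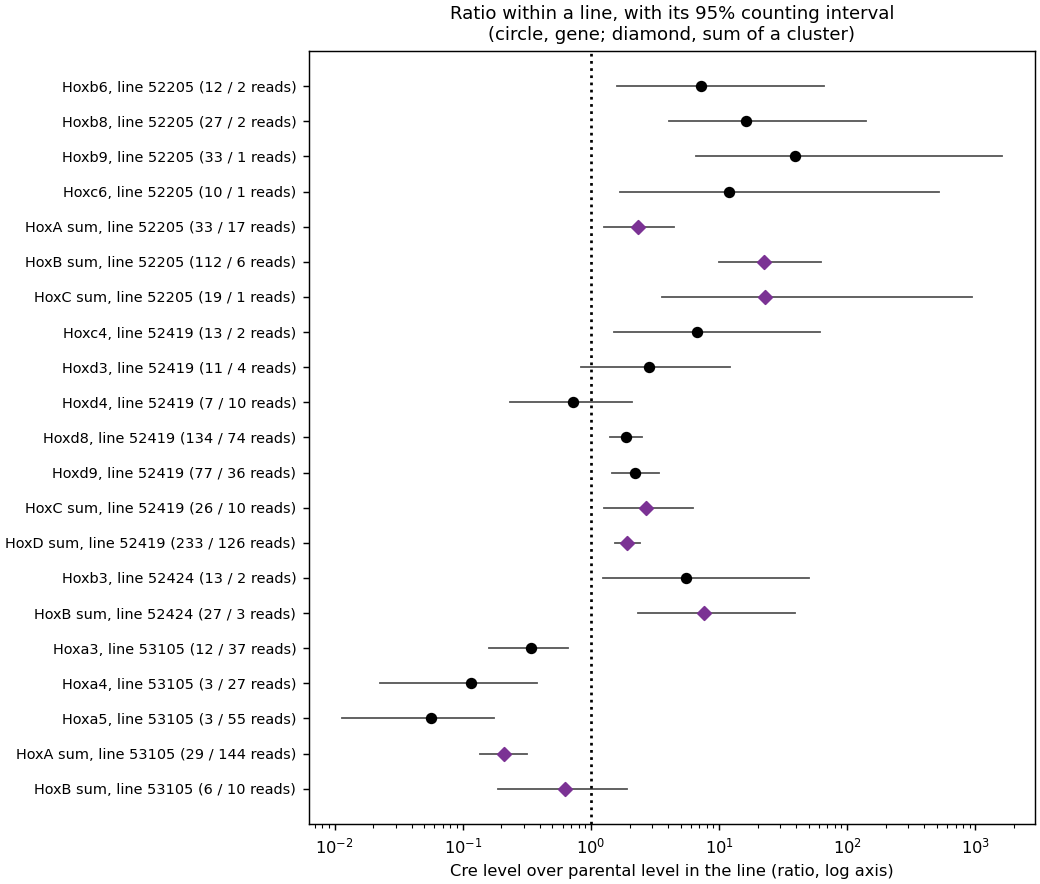
Ratio of the Cre to the parental level within a line (x axis, log scale) with its 95% counting interval, for each member and cluster sum with at least 10 reads in either library and reads in both; read counts are given as Cre / parental. Ratios lie above 1 in 52205 and, except Hoxd4, in 52419, and below 1 in 53105.

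No HOX gene was called as changed by Cre over the 6 pairs. None of the 33 members passed the filter of 1 CPM in at least 6 libraries, so the paired limma fit, which called 3 of 12734 genes (0.0236%), tested no member. With no filter, limma called 0 of 20432 genes (0%) for Cre against parental, with 2329 genes at an unadjusted p under 0.05, and 0 of 33 members were called or reached that unadjusted p. On recovered reads, edgeR's quasi-likelihood test over genes with 10 or more reads in all called 9 of 16860 genes (0.0534%) and 0 of the 17 members it could test. Hoxb8 alone had an unadjusted p under 0.05, with a log2 change of 3.56 and an adjusted p of 0.273 by edgeR. DESeq2 on the same reads called 1.61% of genes and no member, but it gave an adjusted p for only 1 of the 17 members, Hoxd8 (adjusted p = 0.978). The largest unfiltered limma changes with their 95% intervals were 0.47 for Hoxb7 (-0.24 to 1.18), 0.45 for Hoxb8 (-0.18 to 1.08) and 0.43 for Hoxb9 (-0.35 to 1.20), on the log2(CPM + 0.5) scale, which understates changes of low genes.

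Differences between lines were called for some members. The limma F test over lines with no filter called 7 of 33 members (Hoxa3, Hoxa7, Hoxd3, Hoxd4, Hoxd8, Hoxd9 and Hoxd10), against 51.4% of all genes. By reads, edgeR called 9 of 17 members, against 61% of genes: Hoxa3, Hoxa4, Hoxa5, Hoxb8, Hoxb9, Hoxd3, Hoxd4, Hoxd8 and Hoxd9. With a filter of 1 CPM in at least 2 libraries, limma could test 2 members, Hoxd8 and Hoxd9. Both passed only through the 2 libraries of 52419, the line where they were high, so their line call is no separate support. Limma called both between lines (72.2% of genes) and 0 of these 2 for Cre (0.0285% of genes). The share of members called lay below that of all genes with no filter and by reads. With limma and then edgeR, the adjusted p was 2.43e-05 and 0.000561 for Hoxd8, 8.75e-05 and 0.00156 for Hoxd9, and 0.00980 and 0.0122 for Hoxa3. Without line 52419, limma called 1 member, Hoxa7, and edgeR called 4, Hoxa3, Hoxa5, Hoxb8 and Hoxb9. The HoxD calls therefore rest on the 2 libraries of that line. Without line 53105, limma no longer called Hoxa3 (adjusted p = 0.113) or Hoxa7 (adjusted p = 0.568), and edgeR did not call Hoxa7 over all lines (adjusted p = 0.0611). In simulated data 14.6% of edgeR's line calls were false at this read minimum, so its adjusted p-values near 0.05 are weak. The error of this test is the difference between the 2 cultures of a line.

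Across the whole set, the difference within pairs exceeded 1 on the log2(CPM + 0.5) scale in 13 of 198 combinations of member and line (6.57%), 10 of them higher in Cre and 3 lower, beside 4.20% for the 12734 tested genes. Line 52205 held 7 of the 13, or 21.2% of its members, beside 4.66% of tested genes. The median absolute difference was 0 over the members and 0.21 over the tested genes, since most members had no read in either library. The correlation of log levels over the 33 members, given as a description with no test, was 0.95 within 52419, 0.72 within 53105, 0.61 within 52424 and 0.42 within 52205. It was -0.04 within 53369 and -0.13 within 53371, where few reads were present. Parental 52424 had only 4 HOX reads, so the value within 52424 also rests on few reads. The median of the 60 correlations between libraries of different lines was -0.04, with a range of -0.25 to 0.70. The partner of the same line was the most alike library for 6 of 12 libraries.

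Most cofactors and regulators of HOX genes were expressed in every line, and none of those tested was called for Cre. Over all 12734 genes of that fit, 0.0236% were called for Cre and 71.1% differed between lines. A short list would therefore rarely hold a Cre call, and most of its genes would differ between lines. Of 9 TALE cofactors, 6 were at 1 CPM or more in all 12 libraries, 8 were tested, 0 were called for Cre and 8 differed between lines, with a median log2 change of -0.01 against 0.00 over all tested genes. Meis2 had the smallest p of the list, with a log2 change of 0.31 (SE 0.11, adjusted p = 0.291) and a higher Cre value in 5 of 6 pairs. Meis1 had the smallest p between lines, at 41.2 CPM in Cre and 45.5 CPM in parental 53369 but 0.0727 CPM in Cre and 1.21 CPM in parental 52424 (line adjusted p = 1.70e-05). Pbx3 ranged from 11.4 to 42.0 CPM (line adjusted p = 0.00425). Pknox2 had 1.61 CPM in Cre and 2.01 CPM in parental 52419 and at most 0.229 CPM elsewhere, so it was low outside the line with the HoxD code. It did not pass the filter of 1 CPM in at least 6 libraries, so the filtered fit did not test it.

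All 18 Polycomb genes were tested, 0 were called for Cre (0.0236% of all genes) and 12 differed between lines (71.1% of all genes). Their median log2 change for Cre was 0.02. Ezh2, the main methyltransferase that places the repressive H3K27 mark, had a log2 change of 0.30 (SE 0.09, adjusted p = 0.230) and a higher Cre value in 6 of 6 pairs. Phf19, a Polycomb accessory gene, was highest in 52419, at 74.8 CPM in Cre and 47.5 CPM in parental cells, and ranged from 1.65 CPM upward over all libraries (line adjusted p = 0.000492). Cbx7 was lowest in the same line, at 5.99 CPM in Cre and 9.07 CPM in parental cells (line adjusted p = 0.000561). Cbx6 and Ezh1 also had line adjusted p-values of 0.000959 and 0.00108. Of the 9 trithorax-type genes and H3K27 demethylases, 0 were called for Cre and 7 differed between lines, with a median log2 change of 0.03. Kdm6b, which removes the H3K27 mark, had a log2 change of -0.38 (SE 0.10, adjusted p = 0.205) and a lower Cre value in 6 of 6 pairs. Kdm6a, Ash2l, Kdm6b and Wdr5 had the smallest line p-values of that list.

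Cdx2, a caudal factor that acts upstream of posterior HOX genes in the mouse embryo, was the only measured gene of its list. It had 102 CPM in Cre and 53.6 CPM in parental 52424, 75.3 CPM in Cre and 47.9 CPM in parental 53105, 40.7 CPM in Cre and 32.2 CPM in parental 53371, and 22.0 CPM in Cre and 17.1 CPM in parental 52205. It was low in 52419, at 3.00 CPM in Cre and 3.05 CPM in parental cells, and in 53369, at 0.286 CPM in Cre and 0.382 CPM in parental cells. Lines differed at adjusted p = 3.35e-07, while the Cre change was 0.34 (SE 0.15, adjusted p = 0.325). Of these lines with little Cdx2, 52419 had the highest and 53369 the lowest summed HOX level. Of 6 retinoid receptors, 5 were tested, 0 were called for Cre (0.0236% of all genes) and 3 differed between lines (71.1% of all genes). These 3 were Rarb, Rarg and Rxrb. The median log2 change for Cre over the tested receptors was -0.03. Rarg had the smallest Cre p, with a log2 change of -0.25 (SE 0.10, adjusted p = 0.295).

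At the edges of the other clusters, Skap2 next to HoxA ranged from 9.56 to 44.9 CPM and differed between lines (adjusted p = 1.65e-05), and Calcoco1 next to HoxC ranged from 49.0 to 225 CPM (adjusted p = 0.00689). Hibadh and Smug1 were not called between lines (adjusted p = 0.115 and 0.0602). At HoxB both edge genes were low, with Ttll6 at most 0.727 CPM and Skap1 at most 1.12 CPM. In 52205, Ttll6 had 3 reads in the Cre and 4 in the parental library and Skap1 had 3 and 2. In 52424, Ttll6 had 10 reads in the Cre and 0 in the parental library, the highest value of that gene, and Skap1 had 6 and 13.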

How the data were processed

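Per the labels, poly(A) RNA of cultured cells was sequenced from 12 libraries, and no strand-marking step is named. Per the submitters' processing notes, FastQC 0.11.9, featureCounts and edgeR were used with the builds GRCm38 and mm10. An aligner is not named in the sources used here. The authors deposited a signal table of gene counts divided by a scaled library size (20432 genes, CPM), and a log2 table of 10903 genes, which held 0 HOX members. All signal values (100%) were whole multiples of 1 step per library within 0.01, so reads were recovered by division. Entrez numbers were named through RefSeq for 19448 genes.

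Genes at 1 CPM in at least 6 libraries were fitted as log2(value + 0.5) with limma 3.58.1 (R 4.3.3), line as a block, and an F test over lines, 2-sided, with Benjamini-Hochberg adjustment over all genes tested. The block belongs to the design because the labels give isogenic pairs: deviations from group means correlated at 0.73 to 0.95 within pairs, and 12 of 12 libraries were closest to their own line. With 1 library per line and condition, p-values for Cre measure the change against its spread across lines. Those of the F test measure line differences against the difference between the 2 cultures of a line. Because 0 members passed the filter, the fit with no filter, edgeR 4.0.16 and DESeq2 1.42.0 on recovered reads (at least 10 in all), the switch rules and the read-ratio intervals (95%, exact binomial) were used or added after the data were seen. On the filtered genes edgeR called 5 genes and DESeq2 270 for Cre. The fits were tested on simulated data (3 runs of 200 genes changed by Cre and 200 changed in 1 line). For limma with the filter in 6 libraries, false calls were 6.54% of the Cre calls and 11.5% of the line calls (12734 genes). For limma with no filter they were 3.25% of the Cre calls and 2.80% of the line calls (median of 19854 genes). For edgeR at 10 reads or more they were 6.96% of the Cre calls and 14.6% of the line calls (16872 genes). An edgeR fit with no read minimum was tried first and dropped, because 26.7% of its Cre calls and 62.6% of its line calls were false in the simulated data (19854 genes). Far more genes were called between lines in the real data than were changed in the simulated data, so these shares may not carry over. Members and lists were chosen with earlier results of these data known. Results of 1 member and of 1 list gene are not reported here, while counts and sums include them. All other members are accounted for, and list genes are named if they have the smallest p of their list in a fit, or are among the 4 smallest called. Pknox2 and the marker genes were named after their values were seen. Sequences are from RefSeq (GRCm38.p6). Figures were drawn with matplotlib 3.10.9.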

Additional observations from a re-analysis of the deposited data

Results flagged for a closer look

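Among 26 groups of 6 libraries (the Cre and the parental libraries of 9 members and 4 cluster sums), 19 had 1 library whose gap to the nearest other library exceeded, as a share of the group's range, Dixon's critical value for 6 values, where chance flags about 1 in 20 groups. The genes were chosen for reaching 1 CPM, and most other values were near 0, so the flags describe the same libraries as the report. Line 52419 stood apart for Hoxd8 at 10.3 CPM among Cre and 5.50 CPM among parental libraries, for Hoxd9 at 5.92 CPM among Cre and 2.68 CPM among parental libraries, and for the HoxD sum at 17.9 and 9.37 CPM in the same order. Line 52205 stood apart among Cre libraries for Hoxb9 at 2.96 CPM, Hoxb8 at 2.42 CPM, Hoxb7 at 1.88 CPM, Hoxb6 at 1.08 CPM, Hoxa5 at 0.627 CPM and the HoxB sum at 10.0 CPM, and among parental libraries for Hoxb8 at 0.150 CPM (2 reads). Line 53105 stood apart among parental libraries for Hoxa5 at 3.13 CPM, Hoxa3 at 2.10 CPM, Hoxa4 at 1.54 CPM, the HoxA sum at 8.19 CPM and Hoxb9 at 0.227 CPM (4 reads). Line 53369 stood apart among parental libraries for Hoxb7 at 0.153 CPM (2 reads).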

How the results depend on the processing

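Most settings tested 0 members for Cre, so they could not call any. In the settings that tested members, none was called for Cre. With no filter 0 of 33 members were called, with or without the replicate block that pairs the libraries of a line. With a filter in 2 libraries it was 0 of 2 members. By reads it was 0 of 17 with edgeR and with DESeq2, where DESeq2 gave an adjusted p for Hoxd8 alone. The count called between lines was 0 with the filter of 1 CPM in 6 libraries because 0 members were tested, 2 with a filter in 2 libraries (72.2% of genes called) and 7 with no filter. The 2 members passed the filter in 2 libraries only through line 52419, where they were high, so that count is no separate support. Leaving out 1 line gave 1 to 8 members with no filter and 4 to 10 by reads, with both lowest values reached without 52419. Without 53105, Hoxa3 had adjusted p = 0.113 and Hoxa7 adjusted p = 0.568 by limma. The state of members depended on the level. At 0.5 CPM, 4 combinations were at the level in both libraries and 16 in 1 library. At 2 CPM 4 were in 1 library, and at 10 reads 11 were. Line 53105 had 1 member (Hoxa3) at the level in both libraries at 0.5 CPM and at 10 reads. The 4-fold rule left 7 switches, with Hoxc4 in 52419 in place of Hoxa3 in 53105. The Cre change of Hoxd8, called by no tool, was 0.09 on the log2 scale by limma and 0.50 by edgeR but -0.40 by DESeq2. Depth limits these values: a member at 3 reads or fewer cannot be told from 0.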
